A study of Homo sapiens with 12 samples.

Results

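The genes described here are MT-CYB, MT-CO1, MT-CO2, MT-CO3, MT-ATP6 and MT-ATP8, which the mitochondrial genome encodes and which are the mtDNA-encoded subunits of respiratory complexes III, IV and V. Their rows were taken by gene symbol, with no threshold on a measured value, although the set itself was proposed with earlier results of these data known. They are 6 of the 19951 entries of the deposited table, which holds 13 mtDNA-encoded genes in all. The other 7 encode subunits of complex I. MM6 (MonoMac-6) is an established cell line from human acute myeloid leukemia with monocytic features. The cells expressed a control hairpin (shNS) or 1 of 2 hairpins, shBP2-1 and shBP2-2, that target IGF2BP2, which binds RNA and reads its m6A marks. All groups shared the same handling, with lentivirus for 48 h, puromycin selection for 2 days and a medium that contained glutamine. From each group mRNA was sequenced, and ribosome-protected fragments (footprints) were sequenced from cells given cycloheximide for 15 min. Hairpin and assay together made 6 groups with 2 libraries each, 12 in all. The sources used here do not say whether the 2 came from separate cultures, so p-values measure the spread between these libraries, which may be technical.

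Complex III passes electrons from ubiquinol to cytochrome c, complex IV passes them on to oxygen, and complex V makes ATP from the proton gradient that results. Each complex combines subunits from mtDNA with subunits from nuclear genes, and in complex IV the catalytic core is made of the mtDNA-encoded ones. The mtDNA-encoded mRNAs are cut from long transcripts of the whole mitochondrial genome and are translated inside mitochondria by mitochondrial ribosomes. Cycloheximide acts on cytosolic ribosomes, not on mitochondrial ones. Leukemia cells with high respiration depend on these complexes, and glutamine is one of the fuels that feed them.

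All 6 genes lie on the heavy strand's transcript, in GRCh38.p14 coordinates of chromosome M as RefSeq annotates them. MT-CO1, the catalytic subunit of complex IV, spans 5904 to 7445. MT-CO2, which receives electrons from cytochrome c, spans 7586 to 8269. MT-ATP8, a small subunit of complex V, spans 8366 to 8572, and MT-ATP6, which forms part of the proton channel, spans 8527 to 9207. The 2 share a bicistronic mRNA, and their coding regions overlap by 46 bases, so reads in the overlap cannot be assigned to one of them and both values carry that uncertainty. MT-CO3, also a core subunit of complex IV, spans 9207 to 9990 and overlaps MT-ATP6 by 1 base. MT-CYB, the cytochrome b of complex III, spans 14747 to 15887.

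The deposited values are normalized read counts rounded to whole numbers. They summed to between 22685066 and 24854593 in an mRNA library. In footprints they summed to 4884067 and 4423843 in shNS, 504631 and 456338 with shBP2-1, and 1686279 and 2583384 with shBP2-2. Libraries were therefore rescaled within each assay by median-ratio factors, so a change here is relative to the middle gene and not an absolute amount. The target was reduced in both assays. Rescaled IGF2BP2 mRNA (chromosome 3, 185643130 to 185825042) was 2453 and 2343 in shNS, 469 and 505 with shBP2-1, and 713 and 783 with shBP2-2 (log2 fold changes of -2.3 ± 0.11 and -1.68 ± 0.10, SE). Its rescaled footprints were 192 and 196 in shNS, 7 and 15 with shBP2-1, and 20 and 21 with shBP2-2 (-4.06 ± 0.52 and -3.19 ± 0.2). The deposited footprints behind them were 575 and 526, 2 and 4, and 20 and 33, which also carry the difference in library totals. Monocytic markers were present, LYZ far above the rest (mean mRNA value 101325.3), with CD14 at 680.5 and MPO at 3586.7 and with CD4 nearly absent (1.17). The rest of that list were CD68 (2587.7), CD33 (1394.8), FCGR1A (524.3), CD86 (271.5), ITGAM (124.3) and CSF1R (67.5). CD3D and CD3E of T cells, PAX5 of B cells, PF4 and HBB of platelet and red cell lineages, and COL1A2 of fibroblasts were at 0 in every mRNA library. Whole lists of other cell types summed to 1502 to 2255 (T and NK cells), 18 to 31 (B cells), 5 to 20 (red cells and megakaryocytes) and 38 to 71 (epithelium and fibroblasts). Most of the T and NK sum was NKG7, whose mean of 1837.5 was above that of CD14, and CD8A had a mean of 105.7.

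The mtDNA-encoded genes were abundant in mRNA and scarce in footprints. The 13 genes took 5.46% to 6.81% of an mRNA library, and 0.196% to 0.633% of a footprint library. The 6 complex III to V genes alone took 3.42% to 4.21% of mRNA values and 0.111% to 0.32% of footprint values.

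Per kb of coding region, MT-CO1 had the highest mRNA level of the 6 in shNS, at 247707.5 ± 2234.2 (rescaled read count per kb, SD, n = 2, as for all levels here). MT-CO3 followed at 183411.6 ± 1627.1, MT-CO2 at 147525.8 ± 1540.6 and MT-ATP6 at 133646.8 ± 3282.7. MT-ATP8 at 67778.1 ± 1950.8 and MT-CYB at 59469 ± 1034.9 were lowest. As MT-ATP8 and MT-ATP6 share an mRNA, the gap between their values is not a gap between transcripts. Its source was not tested. No neighbours in this order overlapped between their 2 shNS libraries. With shBP2-1 the mRNA levels of MT-CO3 (193465.3 ± 13373.6), MT-ATP6 (191225.6 ± 30889.4) and MT-CO2 (189039.1 ± 28199.5) did overlap.

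In footprints per kb, MT-CO1 was again highest in shNS, at 839.7 ± 105.2, and MT-CO3 came next at 590.9 ± 142.7. MT-CYB, lowest in mRNA, came after MT-CO3 in footprints at 402.2 ± 67.3. MT-CO2 at 358.1 ± 36.6, MT-ATP6 at 335.7 ± 70.8 and MT-ATP8 at 303.3 ± 15.7 followed. From MT-CYB down, each gene overlapped its neighbour, so the order of those 4 is not resolved. The plot of levels per kb shows the 6 genes beside the complex I genes in genome order.

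**Figure D1:**
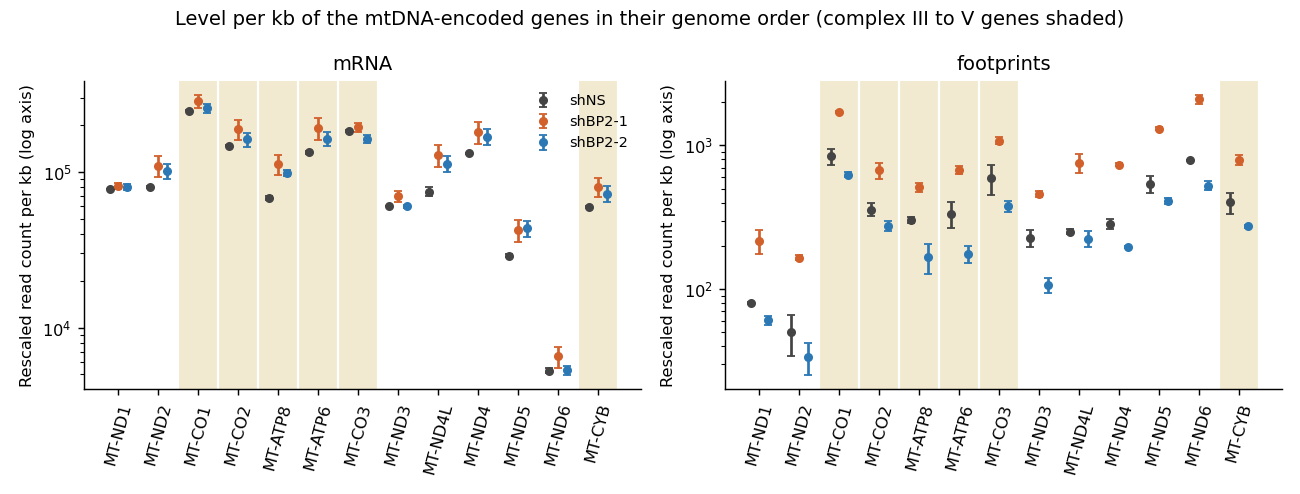
Rescaled read count per kb of coding region (log axis) of the 13 mtDNA-encoded genes in genome order, mRNA left and footprints right; points are means of 2 libraries, bars the SD, and complex III to V genes are shaded. MT-CO1 was the highest shaded gene in each group of both panels.

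Relative to the middle gene, the footprint to mRNA ratio of all 6 genes was low. In shNS the log2 ratio minus that of the median gene was -3.05 for MT-CYB, -3.65 for MT-ATP8, -4.05 for MT-CO1, -4.11 for MT-CO3, -4.47 for MT-ATP6 and -4.53 for MT-CO2. Of 9216 genes, 116 had a lower ratio than MT-CYB and 6 had a lower one than MT-CO2. The low ratio held in every hairpin and replicate, where between 0.0217% (MT-ATP6, shBP2-2 replicate 1) and 6.76% (MT-CYB, shBP2-1 replicate 1) of genes had a lower one. Among the mtDNA-encoded genes it was not universal, since MT-ND6, the one gene read from the other strand, lay 1.41 above the median gene. MT-ND6 held 0.224% of the 13 genes' summed mRNA values in shNS and 8.64% of their footprint values, so its ratio rests on a low mRNA value. MT-ND5 lay at -1.58, where 930 of 9216 genes had a lower ratio. The mRNA and footprint libraries came from different kits, so a ratio compares genes with each other and is not a rate.

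**Figure D2:**
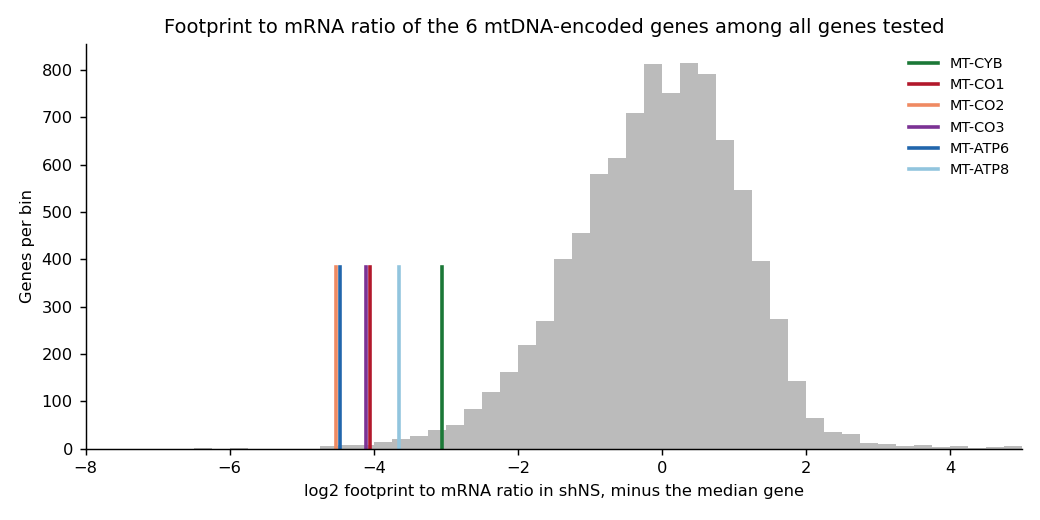
Distribution of the log2 footprint to mRNA ratio over 9216 genes in shNS (mean of both libraries, minus the median gene), with 1 line for each of the 6 genes. The 6 lines lie between -4.53 and -3.05, in the lower tail.

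The first comparison asked whether the mRNA of these genes changed when IGF2BP2 was reduced. Rescaled MT-CYB mRNA was 67019 and 68689 in shNS, 82421 and 100123 with shBP2-1, and 89492 and 75796 with shBP2-2. MT-ATP6 mRNA was 89433 and 92594 in shNS, 115350 and 145099 with shBP2-1, and 119762 and 102797 with shBP2-2. MT-ATP8 mRNA was 13745 and 14316, then 20746 and 25533, then 21075 and 19713, in the same order. In these 3 genes all 4 knockdown libraries lay above both shNS libraries, and the hairpins overlapped each other. The share of all genes with that pattern was not counted.

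The complex IV genes moved less. MT-CO1 mRNA was 379529 and 384401 in shNS, 410374 and 469084 with shBP2-1, and 411958 and 376943 with shBP2-2, so only shBP2-1 lay apart from shNS. MT-CO2 mRNA was 100162 and 101653, then 115664 and 142942, then 118975 and 102612, with both hairpins above shNS by a margin that was narrow for shBP2-2. MT-CO3 mRNA was 144697 and 142893 in shNS, 144263 and 159091 with shBP2-1, and 133695 and 123352 with shBP2-2. It was the one gene of the 6 whose shBP2-2 libraries both lay below shNS. In all 6 genes replicate 2 exceeded replicate 1 with shBP2-1, and replicate 1 exceeded replicate 2 with shBP2-2.

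Limma with voom weights (two-sided, Benjamini-Hochberg over 12203 genes, call at an adjusted p under 0.05, as in all tests here) called 4 of the 6 mRNAs higher with shBP2-1, while 23.5% of all genes were called higher and 21% lower. These were MT-ATP8 (log2 fold change 0.71 ± 0.11, adjusted p = 0.000677), MT-ATP6 (0.51 ± 0.12, 0.00565), MT-CYB (0.42 ± 0.12, 0.0119) and MT-CO2 (0.35 ± 0.12, 0.0286). MT-CO1 (0.20, 0.134) and MT-CO3 (0.08, 0.551) were not called. The calls of MT-ATP8 and MT-ATP6 fall on the same mRNA, so they do not stand for separate transcripts. The median of the 6 was 0.39, against -0.01 for all genes tested. In bulk cells, more mitochondria or mtDNA per cell and more RNA per mtDNA copy cannot be told apart. MT-ATP8 was the one call kept under every scaling and every left-out library, since quantile normalization gave -0.02 for MT-CYB, -0.02 for MT-ATP6 and -0.12 for MT-CO2, none called. Quantile normalization gives equal ranks equal values, and MT-CYB, MT-ATP6 and MT-CO2 mRNA lay above about 99.9% of genes or more in every library. Little change can remain at such ranks, so that setting cannot decide whether these mRNAs changed. Without shNS replicate 1 the adjusted p was 0.095 for MT-CYB, 0.0582 for MT-ATP6 and 0.155 for MT-CO2, without shNS replicate 2 it was 0.0616 for MT-CYB and 0.12 for MT-CO2, without shBP2-1 replicate 2 it was 0.128 for MT-CO2, and without shBP2-1 replicate 1 MT-CO1 was called (0.00862).

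With shBP2-2 only MT-ATP8 mRNA was called (0.54 ± 0.11, adjusted p = 0.00143), where 28.2% of all genes were called higher and 28.8% lower. MT-ATP6 (0.29 ± 0.12, adjusted p = 0.0573) and MT-CYB (0.28 ± 0.12, 0.0552) fell just short. Since MT-ATP6 shares its mRNA with MT-ATP8, the split between their calls is not a split between transcripts. MT-CO2 (0.13, 0.353), MT-CO1 (0.05, 0.731) and MT-CO3 (-0.16, 0.177) were not called. MT-CYB and MT-ATP6 were called once shBP2-1 replicate 1 (0.00304 and 0.00231), shBP2-1 replicate 2 (0.00419 and 0.00315) or shBP2-2 replicate 2 (0.0216 and 0.0233) was left out, and MT-CO3 once shBP2-1 replicate 2 was (0.0453). The difference between the hairpins, whose estimate leaves out shNS while its error pools the spread of all groups, was called for 0 of the 6, where limma called 23.3% of all genes in either direction. All 6 differences were positive, from 0.14 to 0.24 log2 units, and 1 had an unadjusted p under 0.05, with and without voom weights. Without shBP2-1 replicate 1 all 6 were called (adjusted p from 0.00316 to 0.0495).

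Footprints gave the clearest pattern of the 6 genes, and the hairpins went opposite ways. Rescaled MT-CO1 footprints were 1409 and 1180 in shNS, 2679 and 2610 with shBP2-1, and 937 and 998 with shBP2-2. The deposited values behind them were 4218 and 3173, 801 and 701, and 942 and 1536. So footprints of MT-CO1 fell with both hairpins as deposited, and with shBP2-1 they fell less than those of most genes.

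MT-CYB footprints were 513 and 405 in shNS, 960 and 853 with shBP2-1, and 306 and 316 with shBP2-2. MT-CO3 footprints were 542 and 384, then 813 and 882, then 277 and 316, and MT-CO2 footprints were 263 and 227, then 418 and 499, then 200 and 179. In complex V, MT-ATP6 footprints were 263 and 195 in shNS, 438 and 484 with shBP2-1, and 108 and 131 with shBP2-2. MT-ATP8, the least counted, had 60.5 and 65.1, then 100.4 and 111.7, then 28.8 and 40.3, on deposited values of 181 and 175, 30 and 30, and 29 and 62. In all 6 genes the 3 groups did not overlap, and the order was shBP2-1, shNS, shBP2-2 from high to low. How many of all genes separate in this way was not counted. By calls, 21 of 9306 genes (0.226%) were higher with shBP2-1 and lower with shBP2-2, and 17 were the reverse. The 6 genes were among the 21, of which 10 were mtDNA-encoded.

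**Figure D3:**
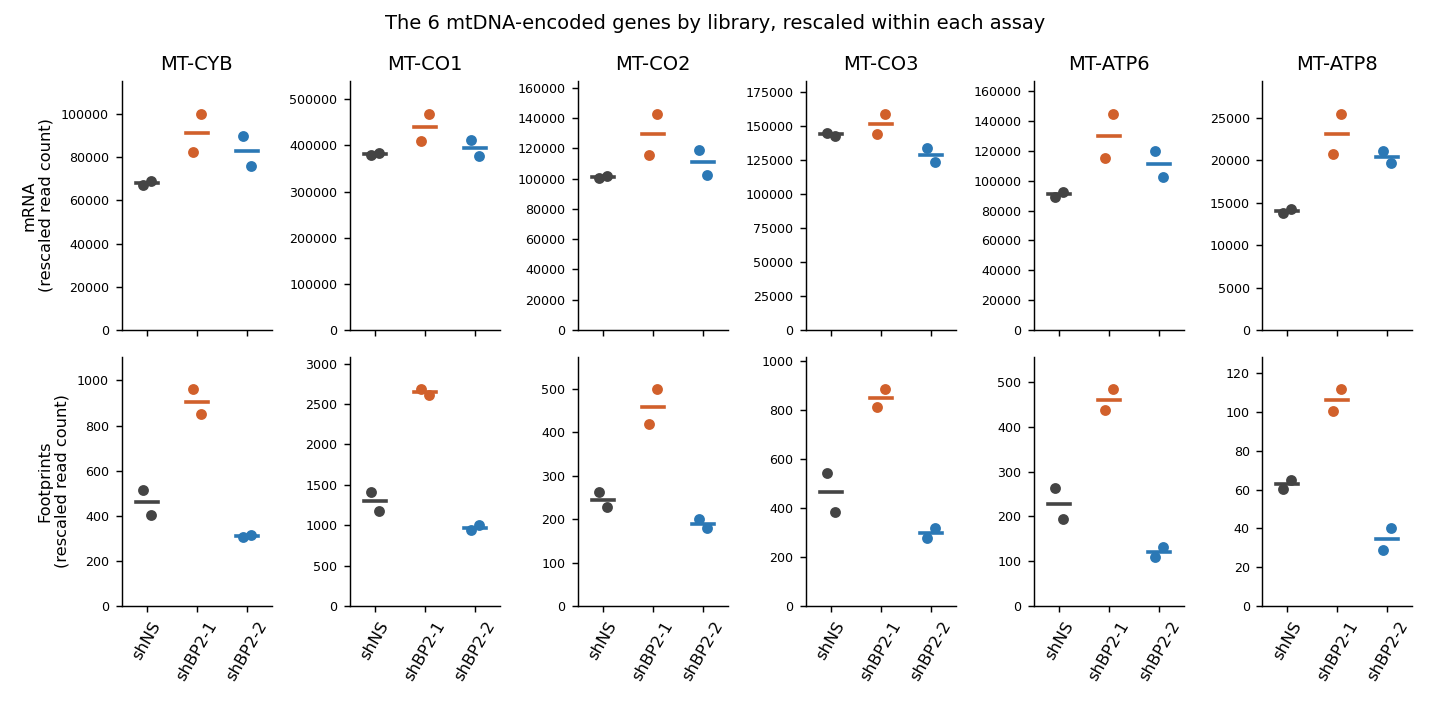
Rescaled read count of the 6 genes in each library (points) with the mean of 2 libraries (line), mRNA above and footprints below. In footprints shBP2-1 lay above shNS and shBP2-2 below it in all 6 genes, an order that holds after rescaling to the middle gene and not for the deposited values, where both hairpins lay below shNS.

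With shBP2-1, limma called footprints of all 6 genes higher relative to the middle gene, where 3.86% of 9306 genes were called higher and 2.88% lower; on the deposited scale all 6 were instead lower, from -2.55 to -2.29 on the log2 scale, while the median gene was at -3.32. MT-CO1 rose by 1.03 ± 0.09 (adjusted p = 3.14e-05), MT-ATP6 by 1.02 ± 0.17 (0.00449) and MT-CYB by 0.99 ± 0.13 (0.000771). MT-CO2 rose by 0.90 ± 0.13 (0.00184), MT-CO3 by 0.88 ± 0.17 (0.00938) and MT-ATP8 by 0.77 ± 0.21 (0.0497). The folds were thus 2.04 for MT-CO1 and 1.71 for MT-ATP8, the largest and smallest of the 6. MT-CYB and MT-CO1 kept their calls whichever library was left out. Without shBP2-1 replicate 2 the other 4 were not called (adjusted p from 0.0612 to 0.382), and MT-ATP8 was also not called without shBP2-1 replicate 1 (0.271) or shNS replicate 1 (0.0648), under quantile normalization (0.0792) or with no filter on low values (0.0511).

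With shBP2-2, limma called footprints of all 6 genes lower, where 5.32% of genes were called lower and 7.02% higher, and on the deposited scale they were also lower, from -2.11 to -1.56 beside -1.19 for the median gene. The complex V genes had the largest changes, MT-ATP6 at -0.90 ± 0.16 (adjusted p = 0.00319) and MT-ATP8 at -0.82 ± 0.19 (0.0136). MT-CO3 fell by 0.62 ± 0.15 (0.0182), MT-CYB by 0.55 ± 0.12 (0.00853), MT-CO1 by 0.41 ± 0.08 (0.00611) and MT-CO2 by 0.39 ± 0.11 (0.0378). The shNS libraries are the same in both comparisons. These calls rested on both shBP2-2 libraries. Without shBP2-2 replicate 1 limma called 0 of the 6 (adjusted p from 0.0512 to 0.141, with 6 unadjusted p under 0.05), and without replicate 2 it called MT-ATP6 and MT-ATP8 (the others from 0.0512 to 0.3). MT-CO2 was also not called without shBP2-1 replicate 1 (0.0534), shBP2-1 replicate 2 (0.0542) or shNS replicate 1 (0.0921), and the trend fit without weights called 3, MT-CYB, MT-CO1 and MT-ATP6.

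The estimate of the direct difference between the hairpins leaves out shNS, though its error pools the spread of all groups, and footprints of all 6 genes were higher with shBP2-1 than with shBP2-2, where 3.27% of genes were called higher. The difference was 1.92 ± 0.21 for MT-ATP6 (adjusted p = 0.000139), 1.59 ± 0.26 for MT-ATP8 (0.00291) and 1.54 ± 0.15 for MT-CYB (5.6e-05). It was 1.5 ± 0.20 for MT-CO3 (0.000686), 1.45 ± 0.11 for MT-CO1 (4.97e-06) and 1.28 ± 0.15 for MT-CO2 (0.00022). By p, MT-CO1 ranked 11 of 9306 genes and MT-ATP8, the last of the 6, ranked 107. On the deposited scale the differences were between -0.86 and -0.18, beside -2.14 for the median gene. Leaving out any 1 library ended a single call, that of MT-ATP8 without shBP2-1 replicate 2 (0.0543).

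Other measures moved with these groups. Footprint totals were highest in shNS and lowest with shBP2-1, with shBP2-2 between them. That is the order of the 6 genes' deposited footprints (group means of 3695.5, 1239 and 751 for MT-CO1 in shNS, shBP2-2 and shBP2-1), and not of their rescaled ones. The monocytic marker list, with 10 of 10 genes in the table and none at 0, summed to 98784 and 100610 in shNS mRNA, to between 152215 and 154603 with shBP2-1 and to between 78472 and 78699 with shBP2-2, and most of it was LYZ. The sum has the order of the 6 genes' rescaled footprints, but this is the order of LYZ (log2 fold changes of 0.70 ± 0.09, adjusted p = 0.000281, and -0.28 ± 0.09, 0.0205) and not of the list. Of its 9 tested genes, 4 were above 0 with shBP2-1 (median -0.12), 6 with shBP2-2 (median 0.08) and 3 between the hairpins (median -0.16), with 2 called higher and 2 lower in each, and MPO was lower with both hairpins (-0.58 ± 0.11, 0.00211, and -1.72 ± 0.12, 1.12e-06). All genes had 23.5% called higher and 21% lower with shBP2-1, 28.2% and 28.8% with shBP2-2, and 23.3% in either direction between the hairpins. The part of depth or of the marker change in the result was not tested.

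**Figure D4:**
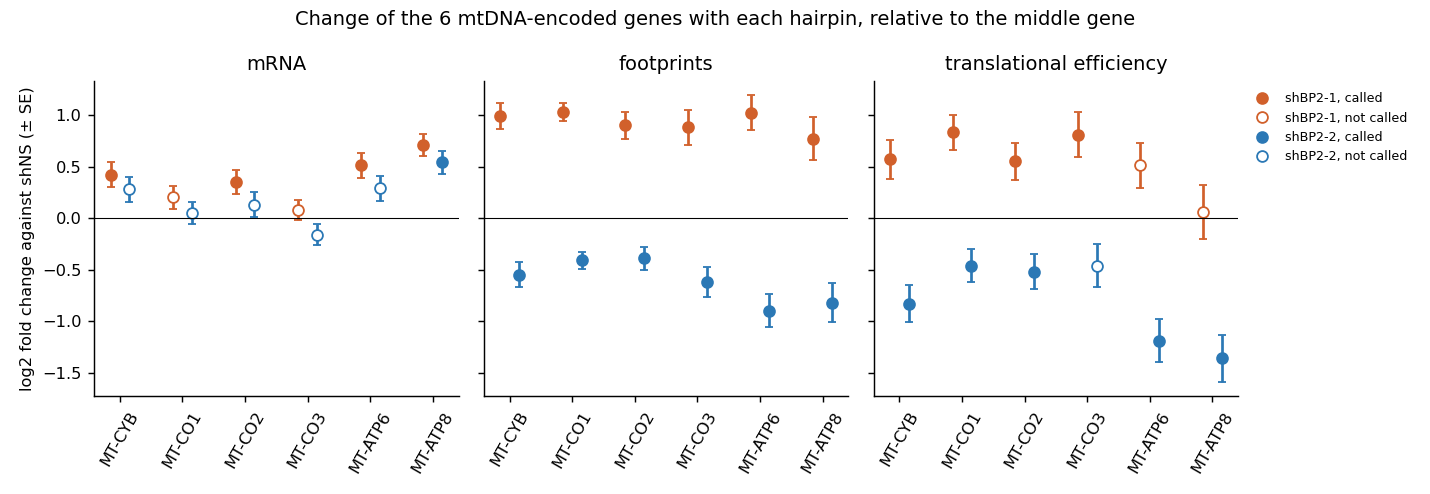
Log2 fold change against shNS (± SE) of the 6 genes in mRNA, footprints and translational efficiency, relative to the middle gene; filled points were called at an adjusted p under 0.05. The footprint points lie between 0.77 and 1.03 with shBP2-1 and between -0.90 and -0.39 with shBP2-2, and on the deposited scale all 12 would lie below 0.

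Translational efficiency, the footprint change minus the mRNA change over all 12 libraries, also separated the hairpins. With shBP2-1, MT-CO1 (0.83 ± 0.17, adjusted p = 0.00353), MT-CO3 (0.81 ± 0.22, 0.016), MT-CYB (0.57 ± 0.19, 0.0395) and MT-CO2 (0.55 ± 0.18, 0.0436) were called higher relative to the middle gene, while on the deposited scale they were between -2.77 and -2.49 and the median gene at -3.37. That is 4 of 6, where 8.55% of 9216 genes were called higher. MT-ATP6 (0.51, 0.103) and MT-ATP8 (0.06, 0.893) were not called. These are the 2 genes whose mRNA had the largest fold with shBP2-1. Under quantile normalization MT-ATP6 was called (1.05, 0.0064), and the values of MT-CYB and MT-CO2 were 1.01 and 1.02. Their mRNA changes were then held near 0 (-0.02 for MT-ATP6, -0.02 for MT-CYB and -0.12 for MT-CO2). These efficiency values therefore largely repeat the footprint changes.

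With shBP2-2, 5 of 6 were called lower, where 18.5% of genes were called lower. MT-ATP8 fell by 1.36 ± 0.23 (adjusted p = 0.000435), MT-ATP6 fell by 1.19 ± 0.21 (0.000627) and MT-CYB fell by 0.83 ± 0.18 (0.00189). MT-CO2 fell by 0.52 ± 0.17 (0.0217) and MT-CO1 by 0.46 ± 0.16 (0.0334), and MT-CO3 (-0.46 ± 0.21, 0.0874) was not called. Under quantile normalization MT-CO2 (-0.28, 0.135) and MT-CO1 (-0.46, 0.0769) were not called and MT-CO3 was (-0.63, 0.036). The mRNA changes were again held near 0 there (-0.10 for MT-CO2, 0 for MT-CO1 and MT-CO3). Between the hairpins all 6 differed, where 0.369% of genes were called higher with shBP2-1 and 0.25% lower, and on the deposited scale all 6 were below 0. MT-ATP6 differed most, by 1.70 ± 0.24 (0.000392), and MT-CO2 least, by 1.06 ± 0.20 (0.00822).

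The weights of this fit use a mean-variance trend within each assay, chosen after a fit with 1 trend over both assays had been seen, and the choice raised the calls among the 6 genes. On simulated data the single trend made the larger share of false calls over all genes, and the smaller share among genes as abundant in footprints as these 6. The single trend called 2 of 6 with shBP2-1 (MT-CO1, adjusted p = 0.00228, and MT-CO3, 0.0166), 4 with shBP2-2 (MT-CYB, MT-CO1, MT-ATP6 and MT-ATP8) and 4 between the hairpins (not MT-CO2, 0.0907, or MT-ATP8, 0.133), with fold changes that moved by at most 0.01. Called under both trends, and with the trend within each assay whichever of the 12 libraries was left out, were MT-CO1 with shBP2-1, MT-CYB, MT-ATP6 and MT-ATP8 with shBP2-2, and MT-CYB, MT-CO1, MT-CO3 and MT-ATP6 between the hairpins. With shBP2-1, MT-CYB lost its call without 6 of the 12 libraries (adjusted p from 0.0619 to 0.168), MT-CO2 without 6 (0.0546 to 0.224) and MT-CO3 without shBP2-1 footprint replicate 2 (0.0739), shNS mRNA replicate 1 (0.0679) or shNS mRNA replicate 2 (0.0521), and MT-ATP6 was called without shNS footprint replicate 1 (0.00906) or shBP2-1 mRNA replicate 2 (0.0367). With shBP2-2, MT-CO1 lost its call without 4 (0.0775 to 0.142) and MT-CO2 without 5 (0.0528 to 0.117), and MT-CO3 was called without 3 (0.000913 to 0.0377). Between the hairpins MT-CO2 lost its call without replicate 2 of the shBP2-1 or the shBP2-2 footprints (0.077 and 0.0511) and MT-ATP8 without 3 footprint libraries (0.0633 to 0.112).

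Within the mtDNA-encoded set, the 6 genes held a smaller share of mRNA in every knockdown library than in shNS, with the rest held by complex I genes. In mRNA they held 64.6% and 64.6% of the 13 genes' summed values in shNS, 62.9% and 61.9% with shBP2-1, and 60.2% and 61.1% with shBP2-2. In footprints they held 58% and 56% in shNS, 51.2% and 50.6% with shBP2-1, and 56.4% and 56.3% with shBP2-2. The mRNA share was lower with each hairpin than in shNS without overlap, and the footprint share was lower with shBP2-1, while shBP2-2 lay inside the range of shNS.

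Scaled to the sum of the 13 genes, MT-ATP8 mRNA was higher with both hairpins (log2 fold changes of 0.40 ± 0.05, adjusted p = 0.0209, and 0.36 ± 0.05, 0.0131) and MT-CO3 mRNA was lower with both (-0.24 ± 0.05, 0.0345, and -0.34 ± 0.05, 0.0137). MT-ATP6 mRNA was higher with shBP2-1 (0.19 ± 0.04, 0.0383; 0.11, 0.091 with shBP2-2) and MT-CO1 mRNA was lower with shBP2-2 (-0.13 ± 0.04, 0.0418; -0.12, 0.0553 with shBP2-1). MT-CYB and MT-CO2 were not called. The 6 genes hold 50.6% to 58% of that sum in footprints, so a change they share is largely removed by construction. On this scale limma called 0 of the 6 in footprints in any of the 3 comparisons, with 1 unadjusted p under 0.05, for MT-ATP6 with shBP2-2 (-0.41 ± 0.19, adjusted p = 0.0576). With shBP2-1 it called 6898 of all 9306 genes in footprints. In translational efficiency MT-ATP8 was lower with both hairpins (-0.76 ± 0.25, 0.0251, and -0.69 ± 0.23, 0.0266) and MT-ATP6 was lower with shBP2-2 (-0.53 ± 0.16, 0.0177). Between the hairpins MT-CO2 was lower with shBP2-1 on this scale (-0.44 ± 0.17, 0.0305), against 1.06 relative to the middle gene.

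**Figure D5:**
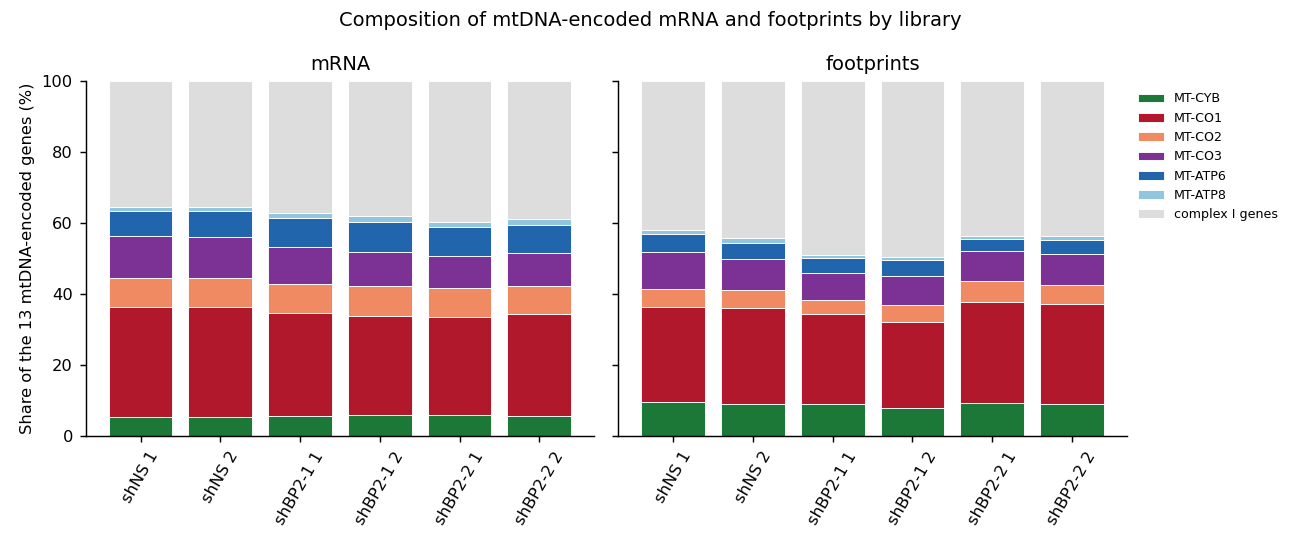
Share of each of the 6 genes, and of the 7 complex I genes together, in the summed values of the 13 mtDNA-encoded genes, by library (bars from 0 to 100%), mRNA left and footprints right. The 6 genes hold 64.6% of mRNA in both shNS libraries and 60.2% to 62.9% in the knockdown libraries.

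The mtDNA-encoded complex I genes, subunits of the NADH dehydrogenase, moved the same way in footprints. All 7 were called higher with shBP2-1, with a median log2 fold change of 1.41 (range 1.03 to 1.75) beside 0.94 for the 6 complex III to V genes. With shBP2-2, 4 of 7 were called lower, with a median of -0.51 beside -0.59, and the difference between the hairpins was called for 7 of 7 (median 1.89 beside 1.52). Among all genes, 3.86% were called higher with shBP2-1, 5.32% lower with shBP2-2 and 3.27% higher with shBP2-1 than with shBP2-2. As with the 6 genes, the rise with shBP2-1 is relative to the middle gene and turns on the deposited scale. In mRNA 4 of 7 were called higher with each hairpin, where 23.5% (shBP2-1) and 28.2% (shBP2-2) of all genes were. MT-ND4L (0.77 ± 0.12 and 0.59 ± 0.12) and MT-ND5 (0.53 ± 0.12 and 0.58 ± 0.12) led.

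Some nuclear-encoded partners in the same complexes shared the lower footprints with shBP2-2, while with shBP2-1 the list did not share the rise (16 of 38 above 0). Of 38 tested nuclear subunits of complexes III to V, 2 were called higher and 4 lower in footprints with shBP2-1 (median -0.04), where 3.86% and 2.88% of all genes were. With shBP2-2, 2 were called higher and 14 lower (median -0.17), where 7.02% and 5.32% of all genes were. Between the hairpins 5 were called in footprints, all higher with shBP2-1 (median 0.10), where 3.27% of all genes were called higher, and 1 was called in translational efficiency, which was lower, as 0.25% of all genes were. No test compared the lists.

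In complex III, UQCRB footprints fell with both hairpins (-0.43 ± 0.08, adjusted p = 0.0101, and -0.54 ± 0.06, 6.52e-05), while its mRNA rose with both (0.80 ± 0.13, 0.000825, and 0.74 ± 0.13, 0.000617). UQCRC1, a core protein of the complex, had higher footprints with shBP2-1 (0.36 ± 0.08, 0.0219) while the value with shBP2-2 was -0.08 (0.418), and UQCRC2, also a core protein, had lower footprints with shBP2-2 (-0.22 ± 0.06, 0.0369; 0, 0.988 with shBP2-1). In complex IV, COX6C footprints were lower with shBP2-2 (-0.27 ± 0.06, 0.0108; 0.25, 0.0822 with shBP2-1) and NDUFA4 footprints were higher with shBP2-1 (0.36 ± 0.09, 0.0274; 0.06, 0.544 with shBP2-2), while COX4I1 was not called (0.22, 0.242, and -0.15, 0.232). In complex V, ATP5PD of the peripheral stalk had lower footprints with shBP2-2 (-0.24 ± 0.07, 0.0345; 0.06, 0.765 with shBP2-1), and the catalytic subunit genes ATP5F1A (0.08, 0.429, and -0.01, 0.928) and ATP5F1B (0.06, 0.555, and 0.16 ± 0.04, 0.0125) had values close to the middle gene in footprints.

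Factors that assemble complexes III to V, 35 of them tested, had 2 called in footprints with shBP2-1, both higher, and 5 with shBP2-2, all lower. In footprints 3.86% of all genes were called higher with shBP2-1 and 5.32% lower with shBP2-2. OXA1L, which inserts mtDNA-encoded proteins into the inner membrane, had footprint values of -0.05 (adjusted p = 0.883) and -0.20 (0.17). Of 27 genes of mitochondrial transcription and RNA stability, 12 were higher and 6 lower in mRNA with shBP2-1, and 11 higher and 11 lower with shBP2-2. Beside these counts, 23.5% of all genes were called higher and 21% lower with shBP2-1, and 28.2% and 28.8% with shBP2-2. LRPPRC, which stabilizes mtDNA-encoded mRNAs, rose in mRNA with both hairpins (0.43 ± 0.11, 0.00915, and 0.66 ± 0.11, 0.000538), as did TFAM, which packages mtDNA and starts its transcription (0.31 ± 0.10, 0.025, and 0.46 ± 0.10, 0.00215), and PNPT1, a mitochondrial RNA-degrading enzyme (0.49 ± 0.11, 0.00352, and 0.73 ± 0.11, 0.000221). LRPPRC footprints were not called (-0.16, 0.164, and 0.05, 0.448). SLIRP footprints were lower with shBP2-2 (-0.28 ± 0.07, 0.0259; -0.13, 0.509 with shBP2-1), and SSBP1 footprints were not called (0.08, 0.662, and 0.08, 0.484). Of the 27 genes, 1 was called higher and 1 lower in footprints with shBP2-1, where 3.86% and 2.88% of all genes were. With shBP2-2, 2 were called higher and 3 lower, where 7.02% and 5.32% of all genes were.

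Mitochondrial translation factors, 17 of them tested in footprints, had median footprint changes of -0.09 and -0.11, and in mRNA 9 of 18 were higher and 2 lower with shBP2-1 and 6 higher and 2 lower with shBP2-2. The shares of all genes were 23.5% higher and 21% lower in mRNA with shBP2-1, and 28.2% and 28.8% with shBP2-2. TUFM, the mitochondrial elongation factor Tu, fell in mRNA (-0.49 ± 0.12, adjusted p = 0.00658, and -0.61 ± 0.12, 0.00121), with footprints at 0.11 (0.504) and 0.02 (0.901). GFM1, the elongation factor G, rose in mRNA (0.38 ± 0.12, 0.0199, and 0.39 ± 0.12, 0.0118), and its footprints were higher with shBP2-1 than with shBP2-2 (0.38 ± 0.10, 0.0428).

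Across the 6 footprint libraries the 6 genes followed each other closely. The 15 pairs had Pearson correlations from 0.91 to 1, with a median of 0.97, and in mRNA from 0.15 to 0.99, with a median of 0.91. Outside mtDNA, the genes most like the mean of the 6 in footprints were TIMM10 (r = 0.9984), DECR1 (0.9951), TMX4 (0.9946), LRG1 (0.9924) and IL6R (0.9923). A correlation takes no account of the size of a change. The log2 fold changes of these genes in footprints ran from 0.22 (TMX4) to 0.68 (IL6R) with shBP2-1. With shBP2-2 they ran from -0.58 (IL6R) to -0.14 (TMX4). In mRNA the genes most like the mean of the 6 were PPHLN1 (0.9994), MYL12B (0.9992), CCDC93 (0.9986), RBM12 (0.9983) and KIF4A (0.9971). With 6 libraries in 3 groups such values are common, as 230 of 3963 genes in footprints and 1098 of 10149 in mRNA reached an r of 0.9, so they describe these libraries only.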

How the data were processed

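The authors deposited 1 score per gene and library, a normalized read count that had been rounded to a whole number. Its normalization method was not given in the sources used here. In the submitters' processing notes stand FastQC, cutadapt, Bowtie, STAR and RSEM with build hg38, without roles or versions. Per the labels' protocols mRNA came from a stranded mRNA kit and footprints from a small-RNA kit after rRNA depletion. No count model was used.

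Median-ratio factors, computed for each assay apart, rescaled the values, which were then tested with limma 3.58.1 in R 4.3.3, with voom weights (offset 0.5), on genes with a mean deposited value of at least 10. Residual degrees of freedom were 3 for mRNA, 3 for footprints and 6 for translational efficiency. Fits were tested on simulated data, and the trend for translational efficiency was changed after that test with its earlier results known. A value rests on its number of reads, so precision is lowest for MT-ATP8 footprints, and the rounded scale gives no exact counting interval. The members and lists were chosen with earlier results of these data known. Named genes were the target, the 13 mtDNA-encoded genes, the 3 most abundant genes of each list, and the 5 genes most like the 6. Of the lists' 3 most abundant genes some are left out of the text, a choice made after their values were seen. The other genes of the monocytic list and the genes at 0 were named from the marker lists in the same way. Replicates with equal numbers showed little deviation in the same direction (correlations from -0.33 to 0.12), so no block was used. The -0.33 was between shBP2-1 and shBP2-2 mRNA over 12203 genes. There, replicates with unequal numbers tended to deviate together, which a block by replicate number cannot capture. Its source was not tested. Alternatives were other scalings, filters, weights and offsets, fits of 2 groups, a replicate block and left-out libraries. RefSeq gave gene positions. No mtDNA sequence was used here.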

Additional observations from a re-analysis of the deposited data

Results flagged for a closer look

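The hairpins differed from each other by a test of the difference itself in 12 results, which are the same contrasts as in the report. In footprints shBP2-1 minus shBP2-2, on the log2 scale relative to the middle gene, was 1.54 for MT-CYB, 1.45 for MT-CO1, 1.28 for MT-CO2, 1.5 for MT-CO3, 1.92 for MT-ATP6 and 1.59 for MT-ATP8. In translational efficiency it was 1.40 for MT-CYB, 1.29 for MT-CO1, 1.06 for MT-CO2, 1.26 for MT-CO3, 1.70 for MT-ATP6 and 1.42 for MT-ATP8, and a fit with 1 trend over both assays did not call MT-CO2 or MT-ATP8 there. Both libraries of each hairpin showed the direction in footprints in all 6 genes. The groups hold 2 libraries each, too few for a check of single libraries that stand apart.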

How the results depend on the processing

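Deposited values with no rescaling kept the direction in mRNA and turned it in footprints and translational efficiency where shBP2-1 was involved, since the median gene moved by -3.32 in footprints with shBP2-1, -1.19 with shBP2-2 and -2.14 between the hairpins. There, 6 of the 6 genes were called lower in footprints with shBP2-1 (MT-CO1 -2.29, MT-ATP6 -2.29, MT-CYB -2.33, MT-CO2 -2.42, MT-CO3 -2.43, MT-ATP8 -2.55) and all 6 were below 0 between the hairpins, 2 of them called, MT-CO1 and MT-CO2 (MT-ATP6 -0.18, MT-ATP8 -0.49, MT-CYB -0.59, MT-CO3 -0.61, MT-CO1 -0.68, MT-CO2 -0.86). In translational efficiency 6 were called lower with shBP2-1 (MT-CO1 -2.49, MT-CO3 -2.51, MT-CYB -2.76, MT-CO2 -2.77, MT-ATP6 -2.81, MT-ATP8 -3.27) and all 6 were below 0 between the hairpins, 4 of them called, without MT-ATP6 and MT-ATP8 (MT-ATP6 -0.45, MT-ATP8 -0.71, MT-CYB -0.78, MT-CO1 -0.88, MT-CO3 -0.89, MT-CO2 -1.12). In mRNA 1 gene was called between the hairpins, MT-CO3.

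Quantile normalization called 1 mRNA with shBP2-1 and turned MT-CYB (-0.02), MT-ATP6 (-0.02) and MT-CO2 (-0.12). It turned MT-CO2 (-0.10) with shBP2-2, and between the hairpins MT-CYB (-0.12), MT-ATP6 (-0.12) and MT-CO2 (-0.02). MT-CO1 and MT-CO3 mRNA were at 0 in each comparison under it and so had no direction. In translational efficiency it called 5 with shBP2-1, MT-ATP6 among them, and 4 with shBP2-2. Quantile normalization gives equal ranks equal values, so the most abundant mRNAs can change little under it. Their translational efficiency then holds mostly the footprint change. The part of this in each value was not tested.

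Scaling to the sum of the 13 mtDNA-encoded genes asks another question by construction. In mRNA 3 were called with shBP2-2, 1 higher and 2 lower, and the values that turned were MT-CO1 (-0.12 and -0.13), MT-CO3 (-0.24 with shBP2-1) and MT-CO2 (-0.04 with shBP2-2). MT-CYB was at 0 between the hairpins, without a direction. In footprints limma called 0 in each comparison, with 0, 1 and 0 unadjusted p under 0.05, and turned all 6 with shBP2-1 (MT-CO1 -0.11, MT-ATP6 -0.12, MT-CYB -0.16, MT-CO2 -0.24, MT-CO3 -0.26, MT-ATP8 -0.37), with shBP2-2 MT-CO1 (0.08) and MT-CO2 (0.12), and between the hairpins MT-ATP8 (-0.04), MT-CYB (-0.10), MT-CO3 (-0.13), MT-CO1 (-0.20) and MT-CO2 (-0.36). In translational efficiency 1, 2 and 1 were called, all lower, and the values that turned were MT-CO3 (-0.02), MT-CYB (-0.26), MT-CO2 (-0.28), MT-ATP6 (-0.31) and MT-ATP8 (-0.76) with shBP2-1, MT-CO2 (0.16), MT-CO1 (0.21) and MT-CO3 (0.21) with shBP2-2, and MT-ATP8 (-0.08), MT-CYB (-0.10), MT-CO1 (-0.21), MT-CO3 (-0.22) and MT-CO2 (-0.44) between the hairpins.

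For mRNA with shBP2-2, a minimum mean of 50 called 2 and a fit of only the groups compared called 3. MT-CO2 mRNA with shBP2-1 was not called with no filter (0.0738). The trend without weights called 3 in footprints with shBP2-2. There MT-CO2 was also not called under quantile normalization (0.0546), no filter (0.0717), an offset of 5 (0.147) or a fit of only the groups compared (0.0508), and MT-ATP8 was not under an offset of 5 (0.0522). In translational efficiency with shBP2-2, MT-CO1 was not called with no filter (0.0561), MT-CO2 was not under the trend without weights (0.0656), and MT-CO3 was in a fit of only the groups compared (0.0276). The 1 trend over both assays, added after seeing the data, called 2 in translational efficiency with shBP2-1 and 991, 2205 and 80 genes in all in its 3 comparisons, beside 1621, 3396 and 57. An offset of 5 put translational efficiency of MT-ATP8 with shBP2-1 at 0. The causes were not tested.

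Leaving out 1 library at a time, with a lone library assumed to vary like the other groups, gave 1 to 5, 1 to 4 and 0 to 6 calls in mRNA (shBP2-1, shBP2-2, between hairpins), 2 to 6, 0 to 6 and 5 to 6 in footprints, and 1 to 5, 3 to 6 and 4 to 6 in translational efficiency. Of single genes, MT-CO1 mRNA with shBP2-2 ran from -0.02 to 0.11 and MT-ATP8 translational efficiency with shBP2-1 from -0.08 to 0.21. With the replicate block, which the labels do not say pairs the libraries, MT-CO2 mRNA with shBP2-1 was not called (0.35, adjusted p = 0.0509), translational efficiency of MT-CO3 with shBP2-2 was (-0.45, 0.0333), and no other call of the 6 genes changed. Depth limits MT-ATP8 most, at 30 and 30 deposited footprints with shBP2-1.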
